A study of Oreochromis niloticus with 14 samples.

Results

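The genes described here are the 200 most abundant of the 525 liver genes that had no entry in the testis table. They were found by gene ID among the 12902 genes of the liver table and ranked by their mean in the 4 control livers. The other 12377 liver genes also appeared among the 16930 genes of the testis table. The rule set aside 7 gene IDs of exocrine pancreas enzymes, and 0 of these were listed for liver alone, so this step removed no gene. The last gene taken, ENSONIG00000003808, averaged 11.9 normalized CPM in control livers and the first gene left out, ENSONIG00000007466, averaged 11.4.

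RNA-Seq was carried out on the liver and testis of adult male Nile tilapia (Oreochromis niloticus), all about 1 year old, after exposure to benzo(a)pyrene (BaP). BaP fish received 3 mg/kg in carrier (DMSO and corn oil) by intraperitoneal injection 5 times at intervals of 6 days, control fish received the carrier on the same schedule, and all were sampled on day 26. There were 4 BaP and 4 control livers and 3 BaP and 3 control testes, and only the livers hold values for the 200 genes. Each aquarium held fish of 1 group only, so aquarium and BaP effects cannot be told apart.

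BaP is a polycyclic aromatic hydrocarbon that binds the aryl hydrocarbon receptor and that the liver oxidizes. The liver makes most proteins of blood plasma, among them clotting inhibitors, complement components and apolipoproteins. It also breaks down purines and pyrimidines and carries organic ions into bile and blood, and genes for such functions are often read in few other tissues.

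Values are normalized CPM: the CPM of a gene after the library size was scaled by a factor (TMM). They are not divided by gene length, so ranks order genes by reads and levels of different genes are not compared. Liver libraries held 12485109 to 42836246 reads on genes, and a floor of 3 reads was worth 0.0646 to 0.270 normalized CPM, for counting error only. Every liver gene in the table had a plain CPM above 1 in at least 3 of the 8 livers, and every testis gene in at least 2 of the 6 testes. A missing testis entry therefore places a gene under such a minimum in testis or outside the table used here. It does not give a testis level of 0.

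Genes listed only for liver were more frequent near the top of the liver ranking. They were 8 of the 100 most abundant liver genes (8.0%), 47 of the top 500 (9.4%), 80 of the top 1000 (8.0%) and 107 of the top 2000 (5.35%). Over the whole liver table they were 525 genes, or 4.07%. In control livers the 200 genes averaged from 11.9 to 2585 normalized CPM with a median of 63.2. Of them, 11 averaged above 1000 and 82 above 100, and the 10 most abundant held 37.5% of the summed control value.

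The 200 genes together took 5.29%, 5.67%, 5.05% and 5.03% of the reads in BaP livers 1 to 4, against 5.03%, 5.08%, 5.23% and 5.02% in control livers 1 to 4. The means were 5.26% ± 0.297 in BaP livers and 5.09% ± 0.0975 in control livers (SD, n = 4 each). The groups overlapped, and the difference of 0.170 percentage points was smaller than the spread between the BaP livers. On the TMM scale used for all other values, the 200 genes summed to 56521.5 ± 3944.8 normalized CPM in BaP and 47606.1 ± 5248.8 in control livers (SD, n = 4 each). BaP livers ranged from 52230 to 61720 and control livers from 42860 to 55110, so the groups overlapped on this scale too, with a larger gap between the means. The TMM factors ran from 0.858 to 1.02 in BaP livers and from 0.949 to 1.19 in control livers. A lower factor raises the values of every gene of a library. The larger gap on this scale is thus not shown to be particular to the 200 genes.

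BaP was compared with control by limma on log2 of the value plus 1 over all 12902 liver genes. Because 1 was added before the log, the changes of genes with few reads are understated on this scale. The study called a gene altered at a fold change over 1.5 with an unadjusted p under 0.05. At this threshold 38 of the 200 genes differed, or 19.0%, against 12.0% of all liver genes. Of these, 22 were higher with BaP (5.93% of all liver genes were) and 16 were lower (6.07% of all liver genes). Among the 5430 genes of both tables within the same range of control means, the share at the threshold was 14.3%. With library size alone as the scaling the split turned round, to 12 higher and 21 lower, as it did over all liver genes (2.77% higher and 10.6% lower, 13.4% in all). With the exact test 37 of the 200 met the threshold, 18 higher and 19 lower, against 12.5% of all. With DESeq2 the split was 21 higher and 21 lower (1740 of all liver genes met the threshold). With edgeR's quasi-likelihood test it was 22 higher and 18 lower (1563 of all liver genes). The split also moved with the ranking: of the top 200 by mean in BaP livers 26 were higher and 6 lower, and by mean over all livers 25 were higher and 11 lower.

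After adjustment over all liver genes by the Benjamini-Hochberg method, 0 of the 200 genes had a limma p under 0.05, and the smallest was 0.147. Among all liver genes 0.0698% passed. The unadjusted p was under 0.05 for 40 of the 200, against 13.5% of all liver genes. The exact test of edgeR, the study's own test, was run on the recovered reads and 7 of the 200 passed at an adjusted p under 0.05 (1.74% of all liver genes did). Of these 7, 1 was higher (0.519% of all) and 6 were lower (1.22% of all). With edgeR's quasi-likelihood test 0 of the 200 passed (0.0388% of all), and with DESeq2 12 did (3.43% of all), 3 of them higher (1.33% of all) and 9 lower (2.10% of all). Control replicate 3 decided the limma count. Without it, 9 of the 200 had an adjusted p under 0.05 (1.67% of all liver genes) and 51 met the study's threshold (18.4% of all).

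The median log2 fold change of the 200 genes was 0.24, with the middle range from -0.19 to 0.58 and extremes of -3.56 and 3.12. Over all liver genes the median was 0.02, and over the genes of both tables within the same range of control means it was -0.05. A value above 0 was found for 130 of the 200 genes (65.0%), against 51.6% of all liver genes. Since control levels chose the genes, their change with BaP is not independent of that choice. When the same 525 genes were ranked by their mean in BaP livers, the median of the top 200 was 0.35 and 182 genes were shared with the ranking by control. The median differed little between tiers of the ranking, at 0.19 for ranks 1 to 50, 0.30 for ranks 51 to 100 and 0.22 for ranks 101 to 200.

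**Figure D1:**
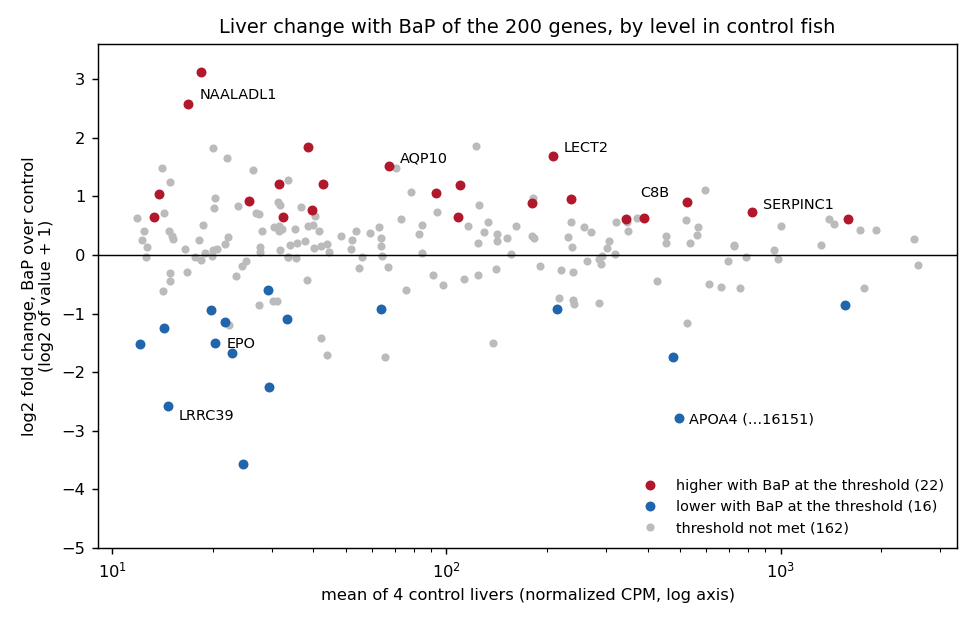
Each point is 1 of the 200 genes, with its mean in the 4 control livers (normalized CPM, log axis) across and its log2 fold change, BaP over control, up. Red points (22) were higher and blue points (16) lower with BaP at the study's threshold, and the points run from -3.56 to 3.12.

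Gene names came from the study's supplementary list of altered genes, which named 31 of the 200. The list held 33 of the 200 genes and 25 of the 38 at the threshold. Named genes were thus chosen by the study for a change in these same libraries, and their direction is not independent evidence. Every other liver gene found by name for the gene lists and marker lists below was also on that list. The study called genes in liver and in testis, so a gene with entries in both tables may have been listed for either tissue. Directions of these genes are not taken as independent evidence either. On the log2 scale the median change was -0.82 for the 33 listed genes and 0.26 for the 167 others, with 117 of the 167 above 0. Of the 13 genes at the threshold that were not listed, 12 were higher with BaP and 1 was lower.

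The 5 most abundant of the 200 genes had no name in the sources used here, and none met the threshold. ENSONIG00000009667, the first of the ranking, had 1342, 3387, 2363 and 694 normalized CPM in BaP livers 1 to 4, against 1051, 914, 6402 and 1973 in control livers 1 to 4. Its first place rested on control replicate 3, and its log2 fold change of -0.18 (SE 0.65) became 0.42 without that fish and 0.24 without BaP replicate 4. ENSONIG00000021228, the second, had 2941, 2734, 3030.4 and 3166 in BaP livers, against 2063, 1848, 2886 and 3254 in control livers. The BaP livers lay inside the range of the control livers, with a log2 fold change of 0.28 (SE 0.24). ENSONIG00000011308 and ENSONIG00000008378 had log2 fold changes of 0.43 (SE 0.28) and 0.42 (SE 0.22), and ENSONIG00000002824 one of -0.56 (SE 0.38). The groups overlapped for all 5.

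Plasma proteins were the largest named group. SERPINC1, C8B and LECT2 were higher and F13B was lower with BaP at the threshold, while SPP2 and APCS did not meet it. These are limma calls, and with the study's exact test SPP2 and APCS met the threshold and LECT2 did not. For 70 symbols of plasma, complement and coagulation proteins, 38 liver genes were found by name, 20 of them higher and 1 lower. Their median change on the log2 scale was 0.82 for the 6 among the 200, 0.70 for the 38 found, 0.57 for the 15 hepatocyte markers found (which share genes with this list) and 0.02 for all liver genes. The genes found by name were all on the study's list of altered genes, so the 0.02 is no yardstick for their medians. The part of hepatocyte content in these values was not tested.

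SERPINC1 (ENSONIG00000007781) encodes antithrombin, the main plasma inhibitor of thrombin. It had 1246, 1139.8, 1597 and 1416 normalized CPM in BaP livers 1 to 4, against 932, 611, 990.0 and 748 in control livers 1 to 4. Every BaP liver was above every control liver. The means were 1349.5 ± 200.1 in BaP and 820.4 ± 173 in control livers (SD, n = 4 each), and the log2 fold change was 0.73 (SE 0.23, limma adjusted p = 0.246). With each liver left out in turn it stayed at the threshold, with log2 fold changes from 0.60 to 0.83.

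C8B (ENSONIG00000018652) encodes the beta chain of complement C8, a part of the pore that complement forms in membranes. BaP livers had 1038, 806, 1085 and 964 normalized CPM, against 526, 552, 637 and 385 in control livers. The groups did not overlap. C8B averaged 973 ± 122 in BaP and 525 ± 104 in control livers (SD, n = 4 each), a log2 fold change of 0.90 (SE 0.23, limma adjusted p = 0.195). Its adjusted p was 0.0108 with DESeq2 and 0.124 with the exact test, and the threshold was met with each liver left out in turn.

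LECT2 (ENSONIG00000012164) encodes a secreted protein first described as an attractant of leukocytes. It had 205, 435, 376 and 1034 normalized CPM in BaP livers, against 115, 56.6, 579 and 81.7 in control livers. BaP livers lay above 3 of the control livers, and control replicate 3 lay among the BaP livers. The log2 fold change from limma was 1.69 (SE 0.70, limma adjusted p = 0.338) and 2.40 without control replicate 3, while the exact test gave 1.30 (unadjusted exact test p = 0.0858). The call was lost without BaP replicate 2, 3 or 4 or control replicate 1, 2 or 4, with unadjusted limma p from 0.0535 to 0.106.

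F13B (ENSONIG00000010939) encodes the carrier subunit of clotting factor XIII. It had 13.6, 9.05, 17.3 and 10.9 normalized CPM in BaP livers, against 10.6, 64.3, 36.2 and 21.9 in control livers. All BaP livers were low and control replicate 1 was as low, with a log2 fold change of -1.09 (SE 0.47, limma adjusted p = 0.350). The call was lost without BaP replicate 1, 2 or 4 or without control replicate 2 or 3, with unadjusted limma p from 0.0607 to 0.119.

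SPP2 (ENSONIG00000012225), a secreted phosphoprotein of plasma and bone, had 159, 141, 111 and 165 normalized CPM in BaP livers, against 384, 334, 92.7 and 338 in control livers. Control replicate 3 was the lowest of the 8 and the other control livers were all above the BaP livers. It had a log2 fold change of -0.82 (SE 0.42, limma adjusted p = 0.427), and -1.30 without control replicate 3 (limma adjusted p = 0.0403). APCS (ENSONIG00000005953), serum amyloid P component, had 92.5, 16.0, 252 and 78.6 in BaP livers, against 26.9, 13.2, 44.2 and 49.6 in control livers. Its BaP livers spread widely, replicate 2 lay among the controls, and the log2 fold change of 1.28 (SE 0.72) was 2.00, at the threshold, without that liver. With all livers the exact test called both at the threshold, with an unadjusted exact test p of 0.0147 for APCS (log2 fold change 1.71) and 0.0213 for SPP2.

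LECT2, APCS and F13B each had a second gene of the same name with entries in both tables. The second LECT2 gene (ENSONIG00000019120) had a log2 fold change of 1.28 (SE 0.32), at the threshold. The second APCS gene (ENSONIG00000018840) had one of 1.43 (SE 0.30), also at the threshold but on few reads. It had 1.31, 1.19, 2.97 and 4.12 normalized CPM in BaP livers, against 0, 0.310, 0.105 and 0.344 in control livers. Control livers 1 and 3 were under the 3-read floor for it. The second F13B gene (ENSONIG00000010940) had a log2 fold change of 0.45 (SE 0.40) and did not meet the threshold. Its sign is opposite to the -1.09 of the gene listed only for liver. It averaged 6235 normalized CPM in BaP and 4502 in control livers, against 12.7 and 33.3 for the gene listed only for liver. The second LECT2 gene averaged 7780 in BaP and 3067 in control livers, against 513 and 208. The F13B and LECT2 genes described above are thus the copies with fewer reads. Reads of near-identical copies can be shared between them in counting. The sequences of these pairs were not compared, so whether this affected their levels was not tested.

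Among genes of lipid transport, both APOA4 genes were lower with BaP at the threshold and NR0B2 was higher. For 41 symbols, 19 liver genes were found by name, 4 higher and 9 lower. The median log2 fold change of the 19 found was -0.84. All 19 were on the study's list of altered genes, so the median of all liver genes is no yardstick for it.

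APOA4 encodes an apolipoprotein of plasma lipoproteins, and 2 genes of that name were among the 200. The first (ENSONIG00000016151) had 69.6, 57.9, 45.3 and 10.8 normalized CPM in BaP livers, against 254, 1449, 63.5 and 217 in control livers. Control replicate 3 lay just inside the BaP range and control replicate 2 stood far above the others. This gave a log2 fold change of -2.79 (SE 0.86, limma adjusted p = 0.239), which was -1.98 without control replicate 2 and -3.47 without control replicate 3. The threshold was met with each liver left out in turn, and the exact test gave an adjusted p of 0.0186.

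The second APOA4 gene (ENSONIG00000016150) had 98.0, 171, 81.5 and 93.4 normalized CPM in BaP livers, against 288, 275, 126 and 168 in control livers. BaP replicate 2 reached the level of the 2 lower control livers. The log2 fold change of -0.92 (SE 0.34, limma adjusted p = 0.295) was smaller than that of the first gene, a difference that was not tested, and the call was lost without BaP replicate 3 or control replicate 1 or 2 (unadjusted limma p from 0.0596 to 0.0621). Whether reads were shared between these 2 genes was not tested either.

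NR0B2 (ENSONIG00000006772) encodes a nuclear receptor that binds no DNA itself and, in mammals, represses bile acid synthesis. It had 240.1, 123, 154 and 239 normalized CPM in BaP livers, against 53.8, 65.3, 118 and 136 in control livers. The groups overlapped only in BaP replicate 2 and control replicate 4. NR0B2 had a log2 fold change of 1.06 (SE 0.36, limma adjusted p = 0.268), and the threshold was met with each liver left out in turn.

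**Figure D2:**
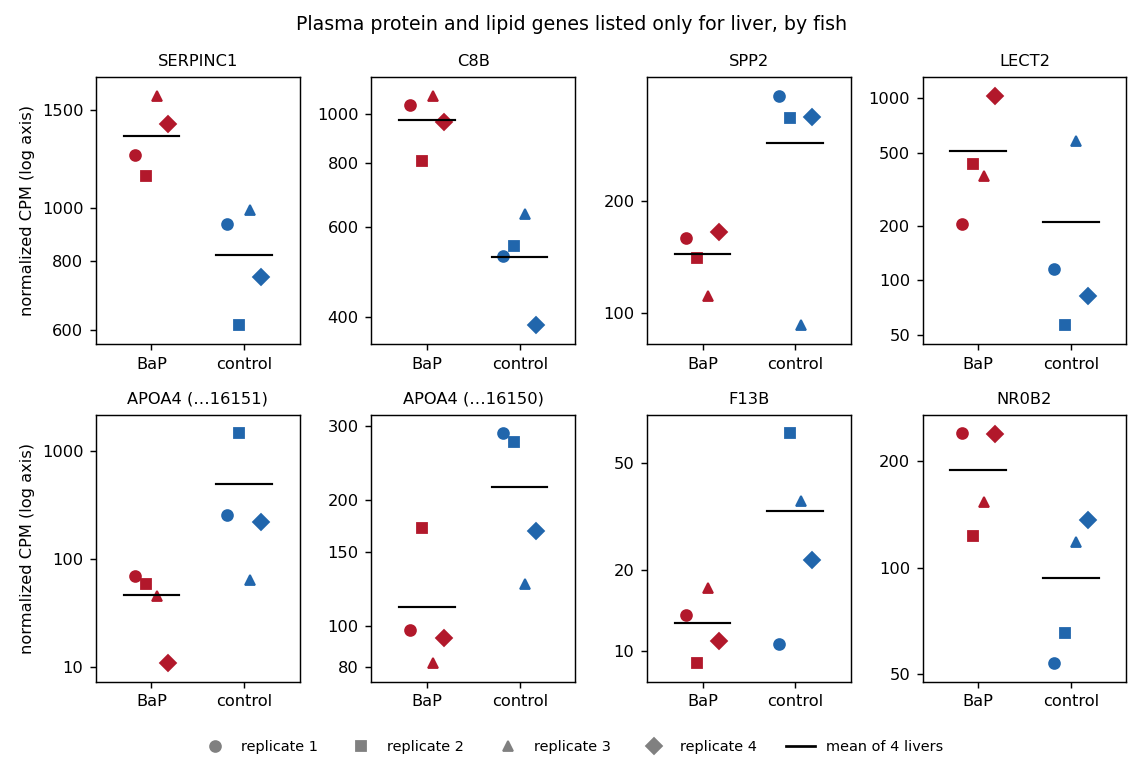
Normalized CPM (log axis) of 8 genes of plasma proteins and lipid transport in each liver, BaP in red and control in blue, with a symbol for each replicate number and a line at the mean of 4 livers. The groups are apart for SERPINC1 and C8B, and control replicate 3 (blue triangle) lies with or below the BaP livers for SPP2 and the APOA4 gene ENSONIG00000016151.

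The 3 enzyme genes found by name among the 200 were all higher with BaP at the threshold. For 45 symbols of catabolic and xenobiotic enzymes, 17 liver genes were found by name, 8 higher and 1 lower. The 3 among the 200, NAALADL1, UPB1 and ALLC, had a median change of 1.21 on the log2 scale, and the 17 found one of 0.87. All 17 were on the study's list of altered genes, so the median of all liver genes is no yardstick for these.

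NAALADL1 (ENSONIG00000016966), a peptidase related to glutamate carboxypeptidase, had the smallest p of the 200. It had 61.3, 98.6, 156 and 62.1 normalized CPM in BaP livers, against 31.4, 6.85, 22.1 and 7.34 in control livers. Every BaP liver was above every control liver. The means were 94.5 ± 44.6 in BaP and 16.9 ± 12.0 in control livers (SD, n = 4 each), a ratio of 5.59 and a log2 fold change of 2.57 (SE 0.50, limma adjusted p = 0.147). Its adjusted p was 0.00295 with the exact test and 0.000311 with DESeq2. NAALADL1 was the 1 gene of the 200 that the exact test called higher after adjustment.

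UPB1 (ENSONIG00000015923) encodes beta-ureidopropionase, the last enzyme of pyrimidine breakdown. It had 42.3, 90.1, 88.2 and 65.6 normalized CPM in BaP livers, against 40.1, 15.3, 46.7 and 24.5 in control livers. Only BaP replicate 1 and control replicate 3 overlapped, and the log2 fold change was 1.21 (SE 0.38, limma adjusted p = 0.239). ALLC (ENSONIG00000018823) encodes allantoicase, an enzyme of the breakdown of purines. It had 45.4, 72.6, 69.6 and 87.4 in BaP livers, against 51.9, 31.7, 30.6 and 44.4 in control livers, a log2 fold change of 0.78 (SE 0.27, limma adjusted p = 0.281). UPB1 kept the threshold with each liver left out and ALLC lost it without BaP replicate 4, where its log2 fold change of 0.65 was still over the fold limit but its unadjusted limma p was above 0.05.

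Genes of the list of membrane transporters and channels moved in both directions. AQP10 and SLC47A1 were higher and GABRR3 was lower at the threshold, and SLC22A13 and TMEM82 did not meet it. With the study's exact test SLC22A13 and TMEM82 met the threshold, at log2 fold changes of -2.08 and -0.91, and SLC47A1 did not, at 0.96. For 33 symbols, 14 liver genes were found by name, 6 higher and 4 lower. The median log2 fold change was -0.76 for the 5 among the 200 and 0.84 for the 14 found. All 14 were on the study's list of altered genes. The median of the 5 is the value of TMEM82, a gene whose transport function is not shown here. AQP10 and SLC47A1 lay above 0, and GABRR3 and SLC22A13 below it.

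AQP10 (ENSONIG00000006266) encodes a channel for water and glycerol. It had 101, 196, 185 and 172 normalized CPM in BaP livers, against 127, 19.1, 76.5 and 46.1 in control livers. BaP replicate 1 and control replicate 1 overlapped, and the log2 fold change was 1.52 (SE 0.50, limma adjusted p = 0.263), from 1.04 to 1.93 with each liver left out. SLC47A1 (ENSONIG00000004833) encodes an exporter of organic cations and drugs. It had 63.9, 99.6, 99.8 and 68.9 in BaP livers, against 89.3, 17.7, 44.8 and 19.5 in control livers, and control replicate 1 lay among the BaP livers. Its log2 fold change was 1.22 (SE 0.47, limma adjusted p = 0.316), and it lost the threshold without BaP replicate 2 or 3 or control replicate 2 or 4 (unadjusted limma p from 0.0621 to 0.0796).

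SLC22A13 (ENSONIG00000005842), a carrier of organic anions, had 22.4, 25.8, 8.36 and 5.33 normalized CPM in BaP livers, against 93.1, 109, 7.22 and 53.2 in control livers. Control replicate 3 again lay with the BaP livers. Its log2 fold change of -1.74 (SE 0.79, limma adjusted p = 0.373) was -2.57 without that fish (limma adjusted p = 0.0487). SLC22A13 also met the threshold without BaP replicate 1 or 2. GABRR3 (ENSONIG00000005108), a subunit of a chloride channel opened by GABA, had 13.9, 6.30, 3.33 and 12.6 in BaP livers, against 29.0, 12.7, 8.74 and 36.5 in control livers. The groups overlapped, and its call (log2 fold change -1.14, SE 0.51, limma adjusted p = 0.369) was lost without BaP replicate 2 or 3 or control replicate 1 or 4, at unadjusted limma p from 0.103 to 0.145. TMEM82 (ENSONIG00000006582) had a log2 fold change of -0.76 (SE 0.43), and -1.19 without control replicate 3, where it was at the threshold.

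EPO (ENSONIG00000019900), the hormone that drives red cell formation, was the only one of 12 hormone and receptor genes found for 25 symbols that was among the 200. It had 3.38, 8.69, 9.35 and 3.84 normalized CPM in BaP livers, against 15.7, 32.8, 8.22 and 24.8 in control livers. Control replicate 3 lay among the BaP livers and the other control livers above them. The means were 6.32 ± 3.14 in BaP and 20.4 ± 10.7 in control livers (SD, n = 4 each), with a log2 fold change of -1.49 (SE 0.44, limma adjusted p = 0.228) that kept the threshold with each liver left out. Of the 12 genes, 5 were higher and 4 lower. For 21 symbols of small non-coding RNAs, 8 liver genes were found and 0 were among the 200.

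LRRC39 (ENSONIG00000004577), a leucine-rich repeat protein described in mammalian heart muscle, had 0.690, 1.28, 0.449 and 1.63 normalized CPM in BaP livers, against 16.4, 19.4, 1.26 and 21.8 in control livers. It was near 1 in all BaP livers and in control replicate 3. The resulting log2 fold change was -2.57 (SE 0.65, limma adjusted p = 0.196), and -3.36 without control replicate 3 (limma adjusted p = 0.00193). The exact test gave an adjusted p of 0.000590. The gene named si:ch211-171h4.3 (ENSONIG00000007062) had 3.80, 12.9, 1.26 and 6.55 in BaP livers, against 33.7, 28.9, 11.7 and 43.4 in control livers. Here too the lowest control liver was replicate 3, and the log2 fold change was -2.25 (SE 0.55, limma adjusted p = 0.193). For si:ch211-171h4.3 the exact test gave an adjusted p of 0.0306, and the limma threshold was met with each liver left out in turn.

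**Figure D3:**
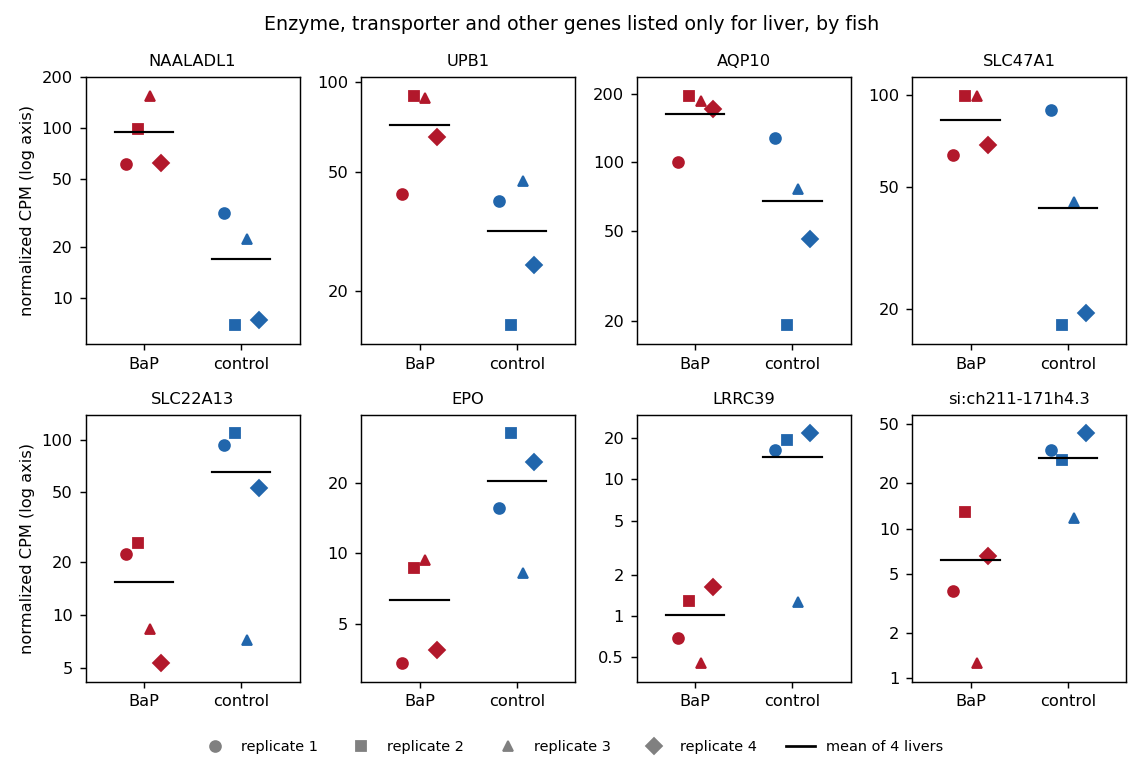
Normalized CPM (log axis) of 8 genes of enzymes, transporters and other functions in each liver, BaP in red and control in blue, with a symbol for each replicate number and a line at the mean of 4 livers. NAALADL1 is higher in every BaP liver than in every control liver, and control replicate 3 (blue triangle) lies among the BaP livers for SLC22A13, EPO and LRRC39.

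The largest change in either direction was that of a gene without a name, ENSONIG00000009342. It had 0, 0.389, 0.0899 and 0.485 normalized CPM in BaP livers, against 2.54, 41.9, 4.66 and 49.3 in control livers. BaP livers 1 and 3 were under the 3-read floor, so their level could not be told from 0, and all 4 were below every control liver. This was a log2 fold change of -3.56 (SE 0.79, limma adjusted p = 0.169), from -4.23 to -2.96 with each liver left out, and the exact test gave an adjusted p of 5.59e-05. By BaP mean this gene came last of the 525. ENSONIG00000018322, also lower in every BaP liver, had 12.4, 10.7, 5.48 and 10.7 in BaP livers, against 12.8, 24.9, 14.8 and 26.7 in control livers (log2 fold change -0.93, SE 0.32, limma adjusted p = 0.274). Unlike ENSONIG00000009342, it was on the study's list of altered genes, though without a name.

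Among genes without a name that were higher, ENSONIG00000010815 had 45.1, 46.7, 39.2 and 52.7 normalized CPM in BaP livers, against 33.4, 16.0, 37.2 and 15.9 in control livers. The groups did not overlap, and the log2 fold change was 0.91 (SE 0.31, limma adjusted p = 0.268). ENSONIG00000004728 had 333, 318, 575 and 596 in BaP livers, against 249.7, 145, 356 and 195 in control livers, with a log2 fold change of 0.96 (SE 0.34, limma adjusted p = 0.279). Control replicate 3 reached the range of its BaP livers, and the call was lost without BaP replicate 3 or 4 or control replicate 2 (unadjusted limma p from 0.0501 to 0.0504).

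BaP and control livers did not overlap for 14 of the 200 genes. Of these, 8 were higher in every BaP liver (4.05% of all liver genes were) and 6 were lower in every BaP liver (3.67% of all liver genes). Neither share of the 200 was above that of all liver genes, so a lack of overlap was not more frequent among them. SERPINC1, C8B and NAALADL1 were the named genes among the 8. The 6 lower genes included GRAMD3, STYK1, TSG101 and PAX9, which were singled out after their values were seen. GRAMD3 (ENSONIG00000013825) was seventh in the ranking and had 793, 552, 954 and 1211 normalized CPM in BaP livers, against 1212, 2165, 1322 and 1541 in control livers. BaP replicate 4 and control replicate 1 nearly touched, and the log2 fold change of -0.85 (SE 0.29) lost its call without BaP replicate 2, at -0.65 with an unadjusted limma p above 0.05. PAX9 (ENSONIG00000000990), a developmental transcription factor, had 4.42, 2.86, 8.90 and 5.75 in BaP livers, against 12.1, 9.70, 23.3 and 12.2 in control livers, a log2 fold change of -1.25 (SE 0.35). STYK1 (ENSONIG00000016628), which encodes a kinase-like protein, had a log2 fold change of -0.92 (SE 0.27). TSG101 (ENSONIG00000014558), which encodes a subunit of a complex that sorts membrane proteins for breakdown, had one of -0.60 (SE 0.23) and lost the threshold without BaP replicate 1 or 3 or control replicate 2 or 3, at -0.58 to -0.47.

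Spread between fish was measured by the coefficient of variation (SD over mean). Over the 200 genes it had a median of 0.327 between BaP livers and 0.383 between control livers. Over the 5430 genes of both tables in the same range of control means it was lower, 0.216 between BaP livers and 0.257 between control livers, and these differences were not tested. It was above 1 for 9 of the 200 genes in BaP livers and for 18 in control livers, and for 128 genes the control livers varied more than the BaP livers. Matching counts over other liver genes were not taken. The median of the genes of both tables was also higher between control livers, so this is not shown to be particular to the 200. Spread was wider further down the ranking, with control medians of 0.281 for ranks 1 to 50, 0.367 for ranks 51 to 100 and 0.450 for ranks 101 to 200.

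The 3 genes with the widest spread between control livers were each set by 1 fish. ENSONIG00000012547 had 8.63, 55.0, 60.8 and 71.7 normalized CPM in BaP livers, against 1.98, 0, 70.8 and 0.969 in control livers, with a control coefficient of variation of 1.89. Control replicate 3 was as high as the highest BaP livers while the other controls were near 0. Its log2 fold change of 3.12 (SE 1.19, limma adjusted p = 0.314) was the highest of the 200 on the limma scale, but the exact test gave 1.41 and no call (unadjusted exact test p = 0.364), below the 2.48 of NAALADL1. The limma call was lost without BaP replicate 2, 3 or 4 or control replicate 1, 2 or 4 (unadjusted limma p from 0.0545 to 0.0783). ENSONIG00000000340 had 15.9, 60.5, 16.3 and 22.0 in BaP livers, against 8.19, 69.5, 0.366 and 2.00 in control livers. Replicate 2 was the highest in both groups, and the threshold was met only without control replicate 2, at a log2 fold change of 2.92 against 1.82 with all fish. ENSONIG00000001070 had 21.5, 6.97, 32.7 and 34.2 in BaP livers, against 2.33, 1.27, 9.16 and 43.5 in control livers, and met the threshold only without control replicate 4, at 2.34 against 1.49 with all fish.

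Single fish stood out over the whole group of genes. Control replicate 2 held the lowest of the 8 values for 58 of the 200 genes (29.0%), against 15.9% of all liver genes. BaP replicate 3 held the highest value for 40 (20.0%), against 12.6% of all liver genes. Of the 22 genes higher at the threshold, control replicate 2 was the lowest control liver in 14, and control replicate 3 the highest control liver in 10. Of the 16 lower genes, control replicate 3 was the lowest control liver in 7. These counts were not taken over all liver genes at the threshold, so they are not shown to be particular to the 200. Without control replicate 2 the number of genes at the threshold was 24 (9.85% of all liver genes met it then), and without BaP replicate 3 it was 22 (8.65% of all).

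**Figure D4:**
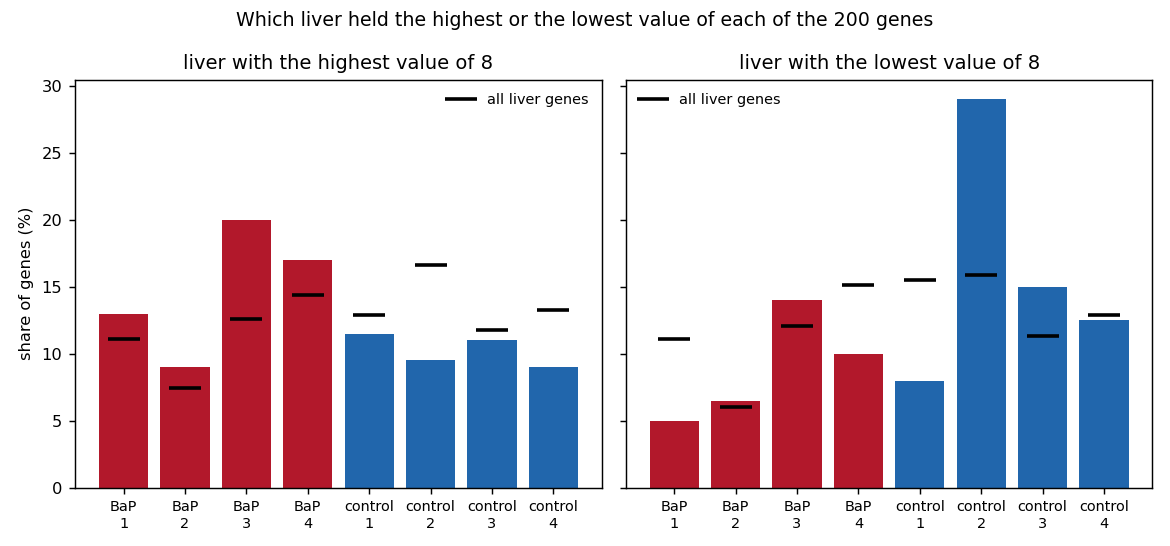
Share of the 200 genes (%) for which each liver held the highest (left) or the lowest (right) of the 8 values, BaP livers in red and control livers in blue, with black marks for all 12902 liver genes. Control replicate 2 holds the lowest value of 29.0% of the 200 genes against 15.9% of all, and BaP replicate 3 the highest of 20.0% against 12.6%.

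Levels in bulk liver cannot tell fewer cells of a type from less RNA per cell. Markers were found by name, and names exist only for genes on the study's list of altered genes. Markers off that list are thus missing. The counts, medians and sums below describe markers chosen by the study for change in liver or testis, not cell content. Of 19 symbols of hepatocyte markers, 15 liver genes were found, with 7 higher and 0 lower with BaP at the threshold and a median log2 fold change of 0.57. They summed to 122600 to 179700 normalized CPM in BaP and 90270 to 132100 in control livers, with overlap and none at 0. Biliary epithelium markers (4 genes for 8 symbols, 2 values at 0) summed to 27.1 to 47.1 normalized CPM in BaP and 14.6 to 17.4 in control livers. The groups did not overlap, and all 4 genes were higher with BaP at the threshold. Red cell markers (6 genes for 12 symbols, none at 0) summed to 152 to 821 in BaP and 180 to 3236 in control livers, with the lowest control value in replicate 3, and 4 were lower. Immune cell markers (7 genes for 12 symbols, none at 0) summed to 64.8 to 91.3 in BaP and 60.2 to 192 in control livers, again lowest in control replicate 3, and 3 were lower. Exocrine pancreas markers were found for 9 genes, of which 1 was higher, and were lowest in control replicate 2. SERPINC1 was the only marker among the 200 genes, and the part of other cell types in their changes was not tested.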

How the data were processed

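RNA-Seq of 8 livers and 6 testes was used in the form of the 2 deposited tables. The authors made poly(A) libraries, trimmed the reads and aligned them with TopHat, then tested them with edgeR. The genome build, annotation and counting program are not given in the sources used here. The deposited values are normalized signal, reads scaled by the authors to a TMM effective library size as CPM. Dividing by the step of each library recovered whole reads for 100% of values (within 0.01 reads).

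Groups were taken from the sample descriptions. Replicate numbers name different fish. No pair of libraries in a group agreed within counting noise. The main test was limma 3.58.1 in R 4.3.3 on log2 of the value plus 1, 4 BaP against 4 control livers, over 12902 genes with Benjamini-Hochberg adjustment. Alternatives were edgeR 4.0.16 (exact and quasi-likelihood tests) and DESeq2 1.42.0 on recovered reads, DESeq2 size factors, library size alone, a pseudocount of 0.1, a mean of at least 1, a replicate block, other rankings, the top 100 genes and leaving out each liver. A trended, robust prior was added after seeing the data. Tested on simulated livers with 200 genes changed by a log2 fold change of 2, limma recovered 163 with 13 false calls, the exact test 180 with 32, the quasi-likelihood test 162 with 9 and DESeq2 184 with 44. The changed genes were drawn only from those above a minimum mean, and each gene varied independently of the others. Single livers that differ over many genes were not simulated, so these rates need not hold in the real livers.

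The 200 genes, the gene lists and the marker lists were chosen with earlier results of these data known. Genes named with values are those with a name in a gene list, the 5 most abundant, those with the largest changes at the threshold, the 3 with the widest control spread and at most 2 higher and 2 lower genes without a name. A result of 1 further gene named by this rule is not reported here. Names exist only for the 1526 genes of the study's supplementary list. Sequences and genome positions were not used here.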

Additional observations from a re-analysis of the deposited data

Results flagged for a closer look

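Groups of 4 livers were compared by Dixon's test at its 95% critical value, for 32 described genes and the summed share of reads, in BaP and in control livers. Of these 66 groups, 5 held a liver set apart from the others, where chance sets one apart in about 1 of 20 groups. That rate is no yardstick here, because ENSONIG00000012547 and ENSONIG00000000340 were chosen for their wide spread between control livers. Control replicate 3 was the liver set apart in 2 of them, with 579 normalized CPM of LECT2 (ENSONIG00000012164) and 70.8 of ENSONIG00000012547. Control replicate 2 was set apart for APOA4 (ENSONIG00000016151), at 1449, and for ENSONIG00000000340, at 69.5. BaP replicate 2 was set apart for ENSONIG00000000340 too, at 60.5. Over all 200 genes a liver was set apart in this way for 15 genes in the BaP group and 13 in the control group, and control replicate 3 was that liver for 8 of the 13, above the others in 6 and below them in 2. The matching counts over all liver genes were not taken. Whether these counts are particular to the 200 genes was therefore not tested.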

How the results depend on the processing

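The count of genes at an adjusted p under 0.05 was 0 with limma, 7 with edgeR's exact test and 12 with DESeq2, and ranged from 0 to 9 with each liver left out (9 without control replicate 3). At the study's threshold the count of 38 was 17 in the top 100 genes and ranged from 22 (without BaP replicate 3) and 24 (without control replicate 2) to 51 (without control replicate 3), where 2370 liver genes met it. The replicate numbers name different fish, and with them as a block 53 genes met the threshold (13.1% of all liver genes), 30 higher and 23 lower, and 0 had an adjusted p under 0.05. Library size alone moved the median log2 fold change of all liver genes to -0.16 and of the 200 genes to 0.03, so the 200 lay 0.19 above all genes, against 0.22 with TMM. The median of the 200 stayed above 0, from 0.20 to 0.28 with each liver left out. The first gene of the ranking, ENSONIG00000009667, changed sign without BaP replicate 4 (0.24) and without control replicate 3 (0.42), in a range from -0.52 to 0.42 with each liver left out. Of 544 values of the 32 genes chosen by rule under alternatives, 465 kept their direction and side of the threshold, 50 lost the threshold, 27 gained it and 2 changed sign. The cause of these changes was not tested. Groups of 4 fish and the wide spread between control fish limit what can be shown.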
